A study of Homo sapiens with 8 samples.

Results

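The butyrophilins are described here in 8 clones of RPMI-8402, a human T-cell acute lymphoblastic leukaemia line: BTNL9 on chromosome 5, and BTN2A1, BTN2A2, BTN3A1, BTN3A2 and BTN3A3 on chromosome 6. These 6 genes were taken by symbol from a table of read counts for 61228 genes. BTNL9 was chosen by its knockout over wild-type fold change in the same table, and the other genes by family. Of the 6, 5 passed the filter on low counts, as did 14243 genes in all; BTN2A1 did not. One group was 4 clones from a knockout of NKX2-1, named C12, C15, S04 and S36, and the other group was 4 wild-type clones, WT10, WT13, WT28 and WT30. NKX2-1 is a homeobox transcription factor of lung and thyroid that is active in some T-cell leukaemias. All clones were grown alike in serum-containing medium with no treatment, and each was sequenced as 1 library of total RNA. The kind of edit in NKX2-1, the meaning of the letters C and S, and the passage of each clone were not stated in the labels, and all clones come from a single cell line.

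Butyrophilins are membrane proteins of the immunoglobulin superfamily, close in structure to the B7 molecules that co-stimulate or restrain T cells. BTN3A1 and BTN2A1 act together on the target cell: phosphoantigens, small intermediates of the mevalonate pathway and of its microbial counterpart, bind the part of BTN3A1 inside the cell, and the main gamma-delta T cells of human blood then recognise the complex through BTN2A1. BTN3A2 and BTN3A3 assist BTN3A1 in that complex, while BTN2A2 restrains T-cell activation, as known from mouse. BTNL9 is a butyrophilin-like relative encoded apart from the others, next to BTNL3 and BTNL8, which address gamma-delta T cells of the gut.

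Some facts about the libraries bear on every value. Total counts ran from 2730285 in C15 to 25423215 in C12 among knockout clones, and from 18453947 to 22916424 among wild-type clones. Levels are given as CPM, read counts scaled to a common library total after trimmed-mean (TMM) correction. A level of 3 counts, about the single-sided 95% Poisson limit for a count of 0, is 1.21 CPM in C15. It is between 0.116 and 0.229 CPM in the other clones. Such limits and the intervals below cover counting error only. NKX2-1 mRNA itself was at 72.0 (C12), 11.3 (C15), 83.6 (S04) and 33.4 (S36) CPM in knockout clones, against 56.9 ± 4.40 CPM in wild-type clones (SD, n = 4). It was thus lower in C15 and S36 and higher in C12 and S04, and gene-level counts do not show a coding edit, so they do not check the labels. All 13 T-lineage markers were measured above the filter, with summed levels of 1886 to 2187 CPM in knockout clones and 1858 to 2323 CPM in wild-type clones. Single markers differed more than the sum: CD5 was at 37.1 to 71.2 CPM in knockout clones and 84.8 to 116 CPM in wild-type clones, and CD7 at 1.3 to 3.8 CPM in knockout clones and 5.59 to 6.55 CPM in wild-type clones (edgeR adjusted p = 0.138 and 0.152). TRBC1 was at 209 (C12), 18.6 (C15), 266 (S04) and 36.5 (S36) CPM in knockout clones, against 162 to 228 CPM in wild-type clones. The part of these markers in the results was not tested. None of 6 myeloid and 4 erythroid markers passed it, and their sums stayed at or below 1.87 CPM in every clone. The 5 B-cell markers summed to 7.003 to 14.2 CPM in knockout clones and 9.85 to 16.9 CPM in wild-type clones, and of 7 epithelial and fibroblast markers 1, COL1A1, was tested.

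The sequences of the BTN3A genes limit how far their counts can be told apart. The coding sequences of the principal transcripts in GENCODE release 29 were identical at 95.7% of aligned bases between BTN3A2 and BTN3A3, at 90.6% between BTN3A1 and BTN3A2 and at 90.0% between BTN3A1 and BTN3A3. BTN2A1 and BTN2A2 were identical at 91.5%, whereas BTNL9 reached 59.8% to 63.3% with any of the others. The opening 120 coding bases of the 3 BTN3A genes are shown because they open with the signal peptide and let the copies be compared base by base; capitals mark the 12 positions at which the 3 genes are not all the same.
BTN3A1: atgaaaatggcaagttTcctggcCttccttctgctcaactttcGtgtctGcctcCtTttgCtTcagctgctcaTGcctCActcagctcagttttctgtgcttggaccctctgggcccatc
BTN3A2: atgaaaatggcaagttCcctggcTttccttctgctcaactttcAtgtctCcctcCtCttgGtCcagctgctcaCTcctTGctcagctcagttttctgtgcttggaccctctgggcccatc
BTN3A3: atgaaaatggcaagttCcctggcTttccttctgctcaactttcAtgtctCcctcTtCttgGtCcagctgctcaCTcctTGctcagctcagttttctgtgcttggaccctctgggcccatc
Farther on, from coding base 205, the 3 genes share an unbroken run of 197 bases, the longest of its kind, from the stretch that encodes the outer immunoglobulin domain.
shared run: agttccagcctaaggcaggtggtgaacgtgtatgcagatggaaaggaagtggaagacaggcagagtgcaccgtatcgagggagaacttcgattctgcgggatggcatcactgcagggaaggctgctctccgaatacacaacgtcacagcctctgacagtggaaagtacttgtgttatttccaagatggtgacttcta
A read that falls within it has no mark of its gene. Of all 50-base windows of the principal transcript, 19.6% in BTN3A2, 19.2% in BTN3A3 and 10.3% in BTN3A1 also occur in a transcript of another gene, a relative in each case, against 6.69% in BTN2A1, 4.94% in BTN2A2 and none of 3451 in BTNL9. Neither read length nor the handling of reads with several matches is given in the sources used here, so the division of counts among the BTN3A genes is uncertain. No exon of the 6 genes overlaps that of another gene in GENCODE 29.

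Promoters, 300-base windows around the RefSeq start that lie mostly before it (GRCh38.p14), were found for 4 of the 6 genes. Those of BTNL9, BTN3A2 and BTN3A3 are shown because BTNL9 differed most between the groups and because the BTN3A pair is closely alike. Each gene is on the plus strand, and capitals mark every match to AANNGAAA, the core of sites for interferon regulatory factors, on either strand.
BTNL9, chr5:181040016-181040315: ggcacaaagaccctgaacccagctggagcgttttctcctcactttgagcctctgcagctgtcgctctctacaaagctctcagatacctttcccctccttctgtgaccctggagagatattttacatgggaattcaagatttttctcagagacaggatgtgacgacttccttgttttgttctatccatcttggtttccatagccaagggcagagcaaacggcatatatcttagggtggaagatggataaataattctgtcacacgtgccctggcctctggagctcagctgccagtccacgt
BTN3A2, chr6:26364948-26365247: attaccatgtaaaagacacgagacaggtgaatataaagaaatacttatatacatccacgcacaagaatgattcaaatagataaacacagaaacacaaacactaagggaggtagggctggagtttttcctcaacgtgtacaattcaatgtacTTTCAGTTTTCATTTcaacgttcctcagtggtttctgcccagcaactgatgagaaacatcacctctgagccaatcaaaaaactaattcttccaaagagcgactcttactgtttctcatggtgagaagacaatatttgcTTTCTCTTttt
BTN3A3, chr6:26440254-26440553: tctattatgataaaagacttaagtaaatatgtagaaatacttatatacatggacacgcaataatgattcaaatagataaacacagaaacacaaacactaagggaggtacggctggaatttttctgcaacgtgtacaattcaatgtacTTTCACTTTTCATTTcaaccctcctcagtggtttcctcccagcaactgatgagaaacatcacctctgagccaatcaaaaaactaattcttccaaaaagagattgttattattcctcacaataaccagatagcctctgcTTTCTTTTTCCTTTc
The BTN3A2 window shown holds 3 such matches and that of BTN3A3 holds 4, some overlapping, while that of BTNL9 holds none. RefSeq gives BTN3A2 another start, whose window (chr6:26367928-26368227) holds none either. Among 34943 promoters of the same length, 22.9% hold at least 1. The longer interferon-stimulated response element, found in 3.57% of promoters, occurs in BTN3A3 alone among these 3. Neither TGTGGT, the core of RUNX sites (13.1% of promoters), nor CAAGTG, the core of sites for NKX2-1 and its relatives (11.5%), occurs in these windows on either strand. The BTN3A2 and BTN3A3 windows are identical at 85.1% of aligned bases. A match of letters is no evidence of a bound site, and its lack says nothing of the factor.

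BTNL9 stood lower in each knockout clone than in any wild-type clone, at about the level of 49.7% of wild type. Its gene, ENSG00000165810.16, lies on the plus strand of chromosome 5 from 181040225 to 181061523 (hg38). It was at 19.5 (C12), 16.15 (C15), 13.7 (S04) and 13.5 (S36) CPM in knockout clones, against 28.0 (WT10), 30.1 (WT13), 33.6 (WT28) and 34.9 (WT30) CPM in wild-type clones. The highest knockout clone, C12, thus lay below the lowest wild-type clone, WT10. The means were 15.7 ± 2.80 CPM in knockout clones and 31.7 ± 3.13 CPM in wild-type clones (SD, n = 4 each). The C15 level rests on 40 counts, with an exact 95% Poisson interval of 11.5 to 22.0 CPM, which also lies below WT10; the other clones have 177 to 785 counts. In RNA of whole cultures, fewer cells with the transcript and less transcript per cell cannot be told apart.

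The log2 fold change of BTNL9 was -1.01 (SE 0.17), with a 95% interval of -1.39 to -0.63. It was the only member called at the edgeR adjusted p of 0.05, with 0.042, when 25 of 14243 genes (0.176%) were called lower, and it ranked 20 by size among those 25. Because this difference led to its choice, the value describes BTNL9 and tests nothing. At the edge of the threshold stood CRAT, the last gene inside with an edgeR adjusted p of 0.0466, and SNORC, the first outside with 0.0503. BTNL9 was also the only tested member whose groups did not overlap; over all tested genes 10.1% did not overlap, 5.62% with each knockout clone below each wild-type clone. Leaving out S04, S36 or any wild-type clone moved the adjusted p of BTNL9 to between 0.086 and 0.188, and it was 0.0152 without C12 and 0.0386 without C15. The log2 fold change stayed between -1.23 and -0.81 in all 17 alternative analyses.

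**Figure D1:**
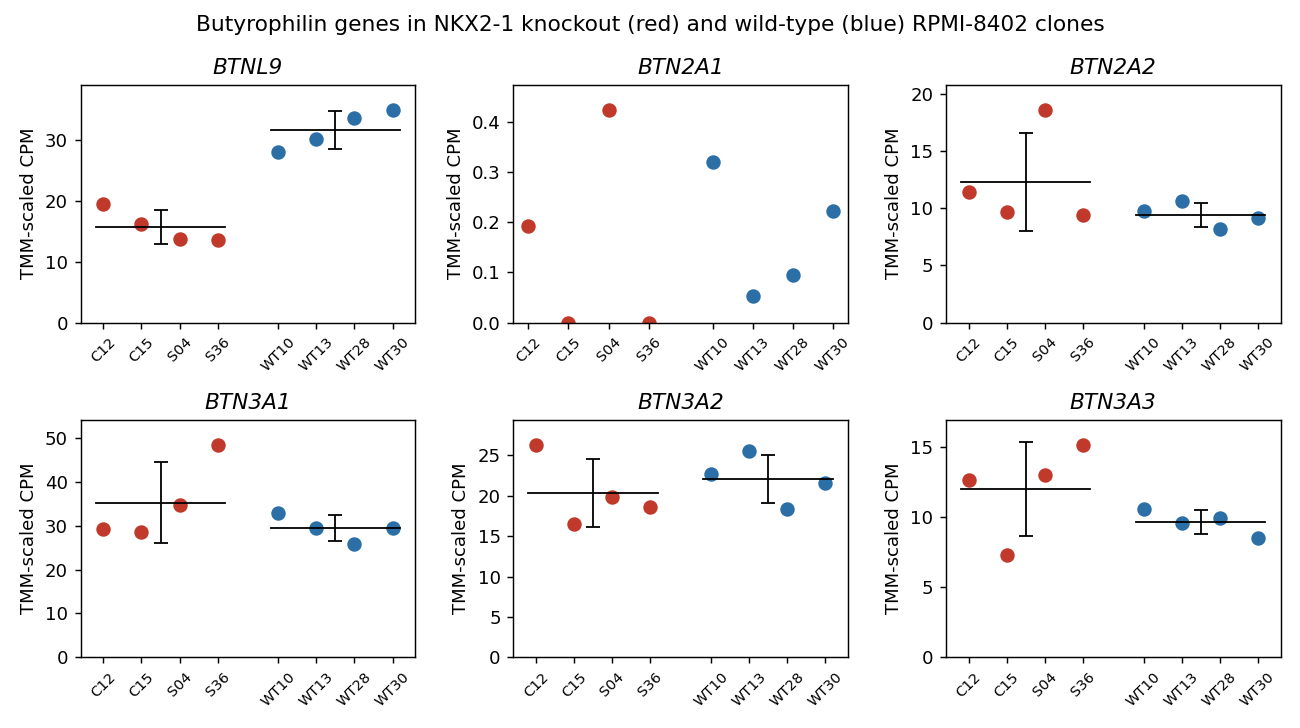
Each panel plots the level of a butyrophilin gene in CPM (vertical axis) for the 4 knockout clones in red and the 4 wild-type clones in blue, with group means as lines and SD as bars where counts allow. In BTNL9 all red points (13.5 to 19.5 CPM) lie below all blue points (28.0 to 34.9 CPM); in the other panels the colours overlap, and BTN2A1 stays under 0.5 CPM.

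The genes of the phosphoantigen complex on chromosome 6 did not separate the groups. BTN3A1, the phosphoantigen sensor (ENSG00000026950.16, from 26402237 to 26415216, plus strand), was at 29.4 (C12), 28.7 (C15), 34.8 (S04) and 48.5 (S36) CPM in knockout clones, against 33.0 (WT10), 29.6 (WT13), 25.9 (WT28) and 29.6 (WT30) CPM in wild-type clones. S36 lay above all other clones, while C12 and C15 lay within the range of wild type. The means were 35.3 ± 9.17 CPM in knockout clones and 29.5 ± 2.90 CPM in wild-type clones, a log2 fold change of 0.27 (SE 0.19). It was 0.073 without S36, and -0.038 with C12 and C15 as the only knockout clones.

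BTN3A2, which lacks most of the part inside the cell, is encoded from 26365159 to 26378320 (ENSG00000186470.13). Its 334 codons compare with 513 in BTN3A1 and 584 in BTN3A3. Its level was 26.3 (C12), 16.55 (C15), 19.9 (S04) and 18.6 (S36) CPM in knockout clones, against 22.7 (WT10), 25.6 (WT13), 18.4 (WT28) and 21.5 (WT30) CPM in wild-type clones. C12 was the highest and C15 the lowest of all clones, so the knockout clones enclosed the wild-type ones. The log2 fold change was -0.099 (SE 0.19), with values from -0.26 to 0.01 in the alternative analyses.

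BTN3A3, the third copy (ENSG00000111801.15, from 26440472 to 26453415), was at 12.6 (C12), 7.27 (C15), 13.0 (S04) and 15.1 (S36) CPM in knockout clones, against 10.6 (WT10), 9.55 (WT13), 9.96 (WT28) and 8.48 (WT30) CPM in wild-type clones. All knockout clones but C15 were above all wild-type clones, and the C15 value comes from 18 counts. The log2 fold change was 0.35 (SE 0.22).

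BTN2A1, the partner that the gamma-delta receptor touches (ENSG00000112763.16, from 26457904 to 26476621), was close to undetected. It had counts of 5 (C12), 0 (C15), 7 (S04) and 0 (S36) in knockout clones, against 6 (WT10), 1 (WT13), 2 (WT28) and 5 (WT30) in wild-type clones. Pooled, 12 counts in knockout clones gave 0.207 CPM (exact 95% Poisson interval 0.107 to 0.361) and 14 counts in wild-type clones gave 0.172 CPM (0.0938 to 0.288). A difference between the groups was not detectable at this depth.

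BTN2A2, the T-cell inhibitor (ENSG00000124508.16, from 26383096 to 26394874), was at 11.5 (C12), 9.69 (C15), 18.6 (S04) and 9.40 (S36) CPM in knockout clones, against 9.74 (WT10), 10.65 (WT13), 8.21 (WT28) and 9.15 (WT30) CPM in wild-type clones. S04 stood above every other clone, and C15 and S36 lay among wild-type clones. The means were 12.3 ± 4.304 CPM in knockout clones and 9.44 ± 1.03 CPM in wild-type clones, a log2 fold change of 0.40 (SE 0.24) that was 0.12 without S04.

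Levels of different genes can be compared only per length, here as CPM per kilobase of merged exons. In knockout clones BTN3A1 led with a mean of 6.37 per kilobase, followed by BTN3A2 with 2.89, BTNL9 with 2.83, BTN3A3 with 2.12, BTN2A2 with 1.92 and BTN2A1 with 0.0406. In wild-type clones BTNL9 led with 5.69, followed by BTN3A1 with 5.32, BTN3A2 with 3.13, BTN3A3 with 1.704, BTN2A2 with 1.475 and BTN2A1 with 0.0454. BTNL9 thus held the top place in wild-type clones and the third in knockout clones. Its wild-type values (5.04 to 6.26 per kilobase) overlapped those of BTN3A1 (4.67 to 5.95), and its knockout values (2.43 to 3.51) overlapped those of BTN3A2 (2.35 to 3.73). Within clones the order also varied: BTNL9 was below BTN3A1 in WT10 but above it in WT28, and below BTN3A2 in S36 but above it in C15. Merged exons span 5565 bases in BTNL9 and 7042 in BTN3A2, but their principal transcripts have 3500 and 3017. The comparison of BTNL9 with BTN3A2 therefore depends on the length chosen, and the division of counts among the BTN3A genes is uncertain. BTN3A3 and BTN2A2 overlapped in knockout clones (1.28 to 2.67 and 1.47 to 2.91) and in wild-type clones (1.499 to 1.87 and 1.28 to 1.67). Within each wild-type clone, however, BTN3A3 lay above BTN2A2.

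**Figure D2:**
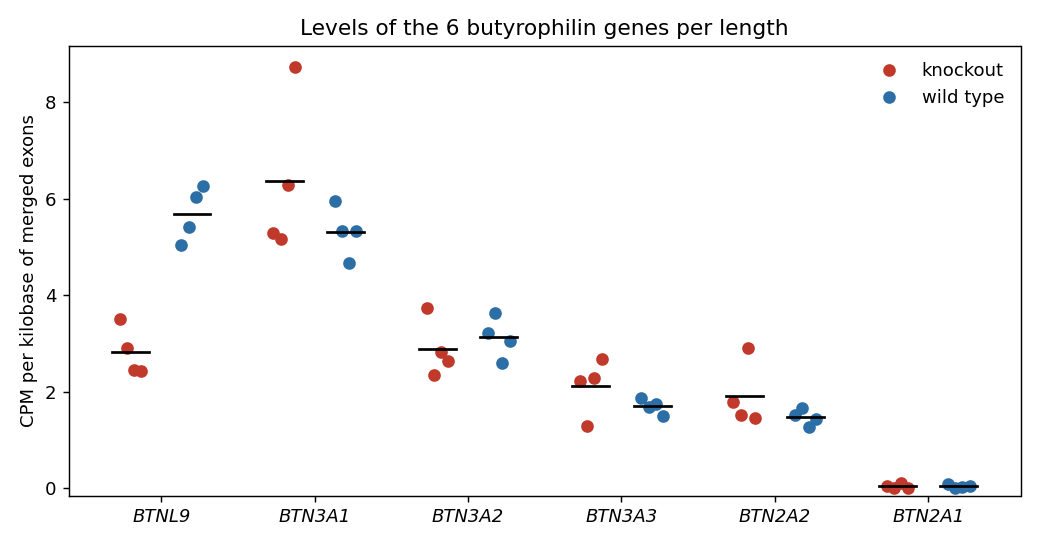
Levels per kilobase of merged exons (vertical axis, CPM per kilobase) are plotted for the 6 genes, with knockout clones in red left of wild-type clones in blue and bars at the means. BTNL9 and BTN3A1 overlap in wild-type clones (means 5.69 and 5.32), while in knockout clones BTNL9 lies at 2.83 beside BTN3A2 at 2.89.

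The share of BTNL9 in the counts of the family differed between the groups along with its level. BTNL9 took 16.7 ± 3.96% of the counts of the 6 genes in knockout clones and 31.0 ± 3.91% in wild-type clones (SD, n = 4 each), with ranges of 12.9% to 20.6% and 26.9% to 35.0%. The ranges do not overlap, as follows from the choice of BTNL9. The summed level of the 5 chromosome 6 genes was 80.1 ± 12.9 CPM in knockout clones and 70.8 ± 6.43 CPM in wild-type clones, with overlapping ranges of 62.2 to 91.6 and 62.5 to 76.4 CPM. Within the BTN3A counts, BTN3A1 took 52.0 ± 6.72% in knockout clones and 48.2 ± 1.91% in wild-type clones, and BTN3A2 took 30.5 ± 6.51% in knockout clones and 36 ± 2.55% in wild-type clones. C12 had the lowest BTN3A1 share, 43.0%, and S36 the highest, 58.9%, so the knockout clones spread on both sides of wild type.

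Among knockout clones the C-named and S-named pairs could be compared by a contrast that played no part in the choice of genes. No member passed the edgeR adjusted p of 0.05, when 51 of 14243 genes (0.358%) did. BTN3A1 came nearest, with a log2 difference of C minus S of -0.52 (SE 0.21, 95% interval -0.997 to -0.039, edgeR adjusted p = 0.259), and it was the 1 member with an unadjusted p under 0.05. Among all 14243 tested genes, 2440 had an unadjusted p under 0.05 in this contrast. DESeq2 and limma-voom called no member either. BTNL9 had a log2 difference of 0.41 (SE 0.21, interval -0.05 to 0.87, edgeR adjusted p = 0.344), its mean being 17.8 CPM in C clones and 13.6 CPM in S clones. For BTN3A3, BTN2A2 and BTN3A2 the log2 differences were -0.43 (-1.07 to 0.22), -0.39 (-1.13 to 0.36) and 0.20 (-0.38 to 0.77). Apart from that of BTN3A1 these intervals include 0, which does not show that the pairs were alike.

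The genes whose log2 CPM followed BTNL9 most closely over the 8 clones, out of 10253 protein-coding genes with a mean of at least 1 CPM, were ATIC (Pearson r = 0.988), CD6 (0.982), R3HDM1 (0.982), RHOQ (0.978) and MOSPD3 (0.975). In all, 31 genes reached 0.95. The points share libraries and depth and fall into 2 groups, so the r values are a description of these 8 clones. Genes picked for likeness to BTNL9 take over the group difference for which BTNL9 was chosen. Their fold changes and adjusted p, given below, therefore describe them and test nothing. ATIC, an enzyme of purine synthesis on chromosome 2 from 215311817 to 215349773, averaged 119 CPM in knockout clones and 181 CPM in wild-type clones (log2 fold change -0.61, SE 0.12, edgeR adjusted p = 0.075). CD6, a surface receptor of T cells on chromosome 11 from 60971680 to 61020377, was at 25.35 (C12), 23.4 (C15), 21.8 (S04) and 18.8 (S36) CPM in knockout clones, against 37.5 (WT10), 42.1 (WT13), 47.0 (WT28) and 41.4 (WT30) CPM in wild-type clones. Its order of clones is close to that of BTNL9, with C12 the highest knockout clone and WT10 the lowest wild-type clone, and the CD6 log2 fold change was -0.91 with an SE of 0.15 (edgeR adjusted p = 0.0383). That call was lost without S04, without S36 or without any 1 of the wild-type clones (edgeR adjusted p 0.0743 to 0.169), with log2 fold changes of -0.97 to -0.84. It was also lost after thinning to the shallowest library (0.0503) and with C12 and C15 as the only knockout clones (0.149). RHOQ shares exon bases with PIGF on the other strand. ATIC, R3HDM1 and RHOQ all lie on chromosome 2.

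Closest to the summed level of the 5 chromosome 6 genes were TTC28 (r = 0.99), RPL39L (0.969), CALCOCO1 (0.967), ALKBH1 (0.962) and H3C10 (0.961). TTC28 was at 5.48 (C12), 2.83 (C15), 6.52 (S04) and 6.72 (S36) CPM in knockout clones, against 4.95 (WT10), 4.41 (WT13), 2.78 (WT28) and 3.82 (WT30) CPM in wild-type clones. Like the butyrophilin sum it was low in C15 and WT28 and high in S04 and S36. TTC28-AS1 overlaps its exons on the other strand. H3C10, a histone gene, lies on chromosome 6 from 27810064 to 27811300.

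The tested genes around BTNL9 had smaller differences between the groups than BTNL9 itself. Of 48 genes that start within 500 kb, 10 were tested and edgeR called none in either direction. Of the 10, 2 had an unadjusted p under 0.05, as had 2202 of all 14243 tested genes. That share is also the background for such counts in the lists below. DESeq2 called 0 of the 10, against 3.89% of all genes it tested. With S04 and S36 as the only knockout clones edgeR called 3 lower, where 14.5% of all genes were called in either direction. With all clones, the median log2 fold change of the 10 was -0.092 (range -0.56 to 0.26), against 0.02 over all tested genes. The nearest tested gene on each side was ZFP62, a zinc finger gene, with a log2 fold change of 0.12 (SE 0.20), and TRIM41, a ubiquitin ligase gene, with -0.051 (SE 0.17). RACK1, which encodes a protein of the small ribosomal subunit, came nearest to a call, with a mean of 890 CPM in knockout clones and 1316 CPM in wild-type clones (log2 fold change -0.56, SE 0.18, edgeR adjusted p = 0.187). The median difference of these 10 genes from wild type was -0.014 in C12 and 0.031 in C15, but -0.32 in S04 and -0.35 in S36. Over the last 5 Mb of chromosome 5 with tested genes, it was -0.23 in S04 and -0.17 in S36 over 60 genes. The part of this local shift in the lower BTNL9 level of S04 and S36 was not tested. In C15 single neighbours lay on both sides, with RACK1 at 745 CPM and MGAT1 at 34.3 CPM against wild-type means of 1316 and 55.2 CPM, but ZFP62 at 54.9 CPM against 33.2 to 42.4 CPM in wild-type clones.

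The tested genes around the chromosome 6 butyrophilins had mostly positive fold changes, but none passed the test with all clones. In C12 the median of the histone genes was near wild type, with some of these genes above all wild-type clones and others below. Of 65 genes within 500 kb of them, 28 were tested and edgeR called none in either direction. Of the 28, 18 had an unadjusted p under 0.05, where 2202 of all 14243 tested genes did. DESeq2 called 8 of them higher, where it called 3.89% of all genes it tested in either direction. With S04 and S36 as the only knockout clones edgeR called 19 higher, where 14.5% of all genes were called in either direction. The median log2 fold change of the 28 with all clones was 0.985 and 25 were above 0. The 19 histone genes among them, pseudogenes included, had a median of 1.51, and the other 9 a median of 0.32. For the histone genes, the median log2 difference from wild type was -0.05 (C12), 0.75 (C15), 1.7 (S04) and 1.96 (S36) in the knockout clones. The 9 other genes were at 0.30 (C12), 0.61 (C15), 0.40 (S04) and 0.40 (S36) in the knockout clones. H2BC5, a histone gene, had the lowest p of the 28, at 16.4 (C12), 26.2 (C15), 52.5 (S04) and 47.3 (S36) CPM in knockout clones, against 8.92 to 12.3 CPM in wild-type clones (log2 fold change 1.75, SE 0.33, edgeR adjusted p = 0.0576). The nearest tested genes outside the cluster were H3C9P, a histone pseudogene before BTN3A2, with 0.048 (SE 0.28), and HMGN4, a chromatin protein gene after BTN2A1, with 0.32 (SE 0.50). Values close by were not all small: H3C8, the next tested gene beyond H3C9P, had 1.755 (SE 0.53). The pseudogene BTN2A3P, inside the cluster, had 0.81 (SE 0.33). The tested butyrophilin genes of the cluster had -0.099 (BTN3A2), 0.27 (BTN3A1), 0.35 (BTN3A3) and 0.40 (BTN2A2).

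**Figure D3:**
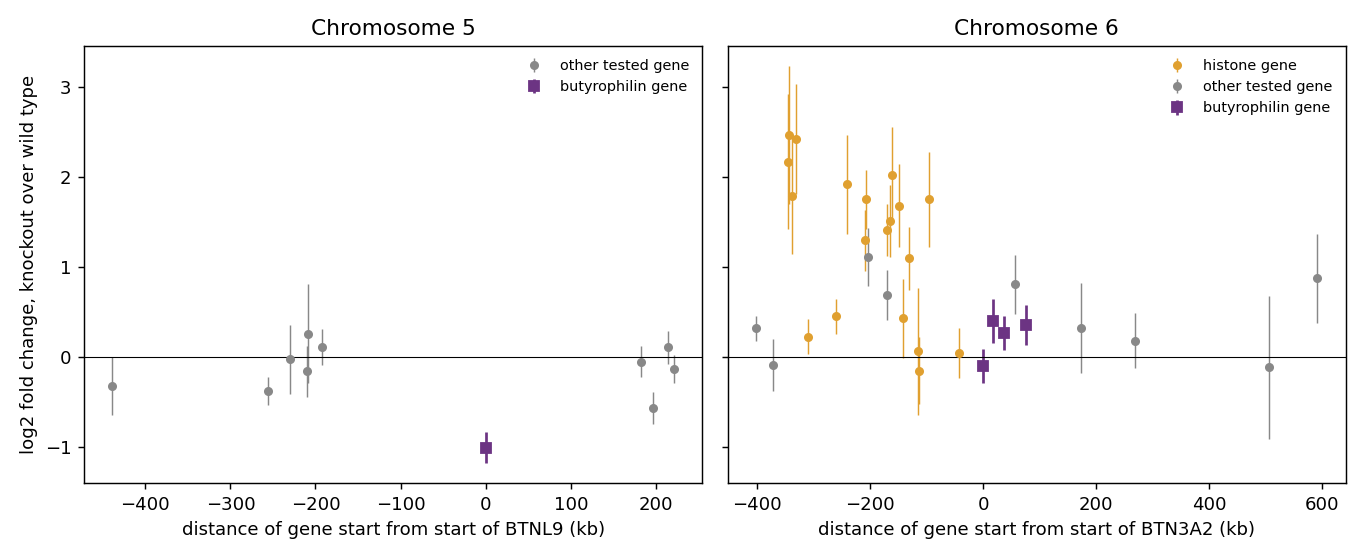
The log2 fold change of knockout over wild type (vertical axis, bars are SE) is plotted against the distance of each gene start in kb from that of BTNL9 (left) or BTN3A2 (right). BTNL9 (purple) lies at -1.01 below all 10 tested neighbours (-0.56 to 0.26), and on chromosome 6 the histone genes (orange, median 1.51) lie mostly above the purple butyrophilin genes.

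The other butyrophilin relatives were mostly silent. Of 11 listed, 10 had a row and 5 of these had no count in any clone, among them BTN1A1, the milk fat butyrophilin, and BTNL2, from the HLA region. BTNL3 had at most 2 counts in a clone, HHLA2 at most 7, and BTNL8 0 counts in each knockout clone and 0 to 6 in wild-type clones. The 2 tested, the pseudogene BTN2A3P and the blood-group gene ERMAP, were called in neither direction by edgeR or DESeq2, with 1 at an unadjusted p under 0.05. BTN2A3P, which lies between BTN3A1 and BTN3A3, was at 1.27 (C12), 2.02 (C15), 1.39 (S04) and 1.99 (S36) CPM in knockout clones, against 0.802 to 1.01 CPM in wild-type clones. These ranges do not overlap, in a table where 4.44% of genes had each knockout clone above each wild-type clone, and its log2 fold change was 0.81 with an SE of 0.33 (edgeR adjusted p = 0.275). BTN2A3P shares 50-base windows with BTN2A1 and BTN2A2, and C15 holds 5 counts of it.

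Genes on the ligand and receptor sides of the phosphoantigen pathway were called in neither direction by edgeR with all clones. Of 14 mevalonate pathway genes 13 were tested, 2 with an unadjusted p under 0.05 (2202 of 14243 over all genes). DESeq2 called 1 of them higher, where it called 3.89% of all genes it tested in either direction. The 13 had a median log2 fold change of 0.079, 7 above 0 and 6 below. ACAT2, which joins acetyl-CoA units at the pathway's start, had the smallest p, with 2.51 (C12), 2.83 (C15), 3.02 (S04) and 4.97 (S36) CPM in knockout clones, against 1.42 to 1.68 CPM in wild-type clones (log2 fold change 1.11, edgeR adjusted p = 0.145). It shares exon bases with TCP1 and SOD2 on the other strand, and use of strand in counting is not given. HMGCS1, the synthase before the rate-limiting step, had a log2 fold change of 0.77, and FNTA, a farnesyltransferase subunit, had -0.35; HMGCS1 also has a gene on the other strand of its exons. With S04 and S36 as the only knockout clones, edgeR called ACAT2 higher (log2 fold change 1.34, adjusted p = 0.0222) and FNTA lower (-0.72, adjusted p = 0.0156). In that fit 14.5% of all genes were called in either direction. Of 5 reported partners of butyrophilins 3 were tested, none with an unadjusted p under 0.05 or a DESeq2 call: ABCA1, a lipid exporter, had a log2 fold change of 1.05, RHOB, a small GTPase, -0.35, and MAP4, a microtubule protein, 0.079. ABCA1 ranged from 1.58 CPM in C12 to 18.6 CPM in S36 among knockout clones, and from 1.998 to 8.07 CPM among wild-type clones.

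The leukaemia cells themselves carry transcripts of some gamma and delta chain genes, which does not show a complete receptor. Of 14 receptor genes 6 had no count in any clone and 4 were tested, with no delta variable segment among the 4. TRDC, the delta constant region, was at 1.21 to 13.0 CPM in knockout clones and 4.95 to 10.85 CPM in wild-type clones (log2 fold change 0.23, SE 0.49). All 4 were above 0, with a median log2 fold change of 1.03. None of the 4 was called by edgeR or DESeq2, and 2 had an unadjusted p under 0.05. With S04 and S36 as the only knockout clones, edgeR called TRGC2 (log2 fold change 1.93, adjusted p = 0.00629) and TRGV4 (1.67, adjusted p = 0.0231) higher, whereas with C12 and C15 alone their log2 fold changes were 0.12 and 0.52. The fit with S04 and S36 alone called 14.5% of all genes in either direction. The contrast of C against S clones called neither TRGC2 nor TRGV4. TRGC2, a gamma constant region, was at 25.04 (C12), 8.48 (C15), 78.7 (S04) and 50.4 (S36) CPM in knockout clones, against 12.7 to 25.2 CPM in wild-type clones (log2 fold change 1.31, edgeR adjusted p = 0.246). S04 and S36 were above all wild-type clones and C15 was below them, so the groups overlap. TRGV4, a gamma variable segment, had a log2 fold change of 1.25 (edgeR adjusted p = 0.189), with 3.63 to 11.7 CPM in knockout clones and 2.02 to 5.24 CPM in wild-type clones.

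Among B7 relatives 2 of 9 genes were tested and neither was called by edgeR or DESeq2, with 1 at an unadjusted p under 0.05. NCR3LG1, a ligand of the natural killer receptor encoded by NCR3, was at 1.23 (C12), 14.1 (C15), 0.785 (S04) and 14.5 (S36) CPM in knockout clones, against 0.178 to 1.93 CPM in wild-type clones (log2 fold change 3.04, SE 1.00, edgeR adjusted p = 0.197). C15 and S36 were high, whereas C12 and S04 lay within the wild-type range. VSIR, an inhibitory member, had a log2 fold change of -0.17.

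The interferon side, which is known to raise BTN3A and HLA genes, held 2 called genes. Of 39 interferon-stimulated genes listed, 33 were tested, 1 was called higher (0.140% of all genes) and 1 lower (0.176%), with a median log2 fold change of -0.024. DESeq2 called 4 higher and 4 lower, and edgeR with S04 and S36 alone 6 higher and 3 lower. Of all genes, DESeq2 called 3.89% and edgeR with S04 and S36 alone 14.5%, in either direction. GBP1, an interferon-induced GTPase, rose to 17.8 (C12), 14.1 (C15), 9.66 (S04) and 8.94 (S36) CPM in knockout clones, against 3.44 to 4.71 CPM in wild-type clones (log2 fold change 1.68, SE 0.27, edgeR adjusted p = 0.037). SP110, a nuclear body protein, fell to 62.1 (C12), 50.9 (C15), 40.7 (S04) and 49.7 (S36) CPM in knockout clones, against 91.1 to 92.5 CPM in wild-type clones (log2 fold change -0.85, SE 0.15, edgeR adjusted p = 0.042). Both calls were lost without S04 and without any 1 of the wild-type clones, and that of SP110 also without S36, with edgeR adjusted p between 0.0575 and 0.169; the log2 fold changes there were 1.62 to 1.8 for GBP1 and -0.87 to -0.76 for SP110. Thinning to the shallowest library also ended both (0.13 and 0.147), and that of SP110 was not made with C12 and C15 alone (0.126). SP110 shares exon bases with SP140 on the other strand.

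Of 20 interferon and MHC regulators 16 were tested, 2 with an unadjusted p under 0.05 and none called by edgeR or DESeq2 (median log2 fold change 0.20); with S04 and S36 alone edgeR called 2 higher. RFX5, a subunit of the factor that binds HLA promoters, had a log2 fold change of 0.49, and its partner RFXANK -0.60. Of 18 genes of HLA class I presentation 13 were tested, 3 with an unadjusted p under 0.05, none called by edgeR and 1 called lower by DESeq2 (median log2 fold change 0.25); with S04 and S36 alone edgeR called 1 higher and 1 lower. Of all genes, 2202 of 14243 had an unadjusted p under 0.05. DESeq2 called 3.89% and edgeR with S04 and S36 alone 14.5%, in either direction. PSMB9, an immunoproteasome subunit, was at 6.46 to 10.3 CPM in knockout clones and 14.3 to 18.1 CPM in wild-type clones, with a log2 fold change of -0.85 (edgeR adjusted p = 0.101). RFX5, RFXANK and PSMB9 each share exon bases with a gene on the other strand.

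**Figure D4:**
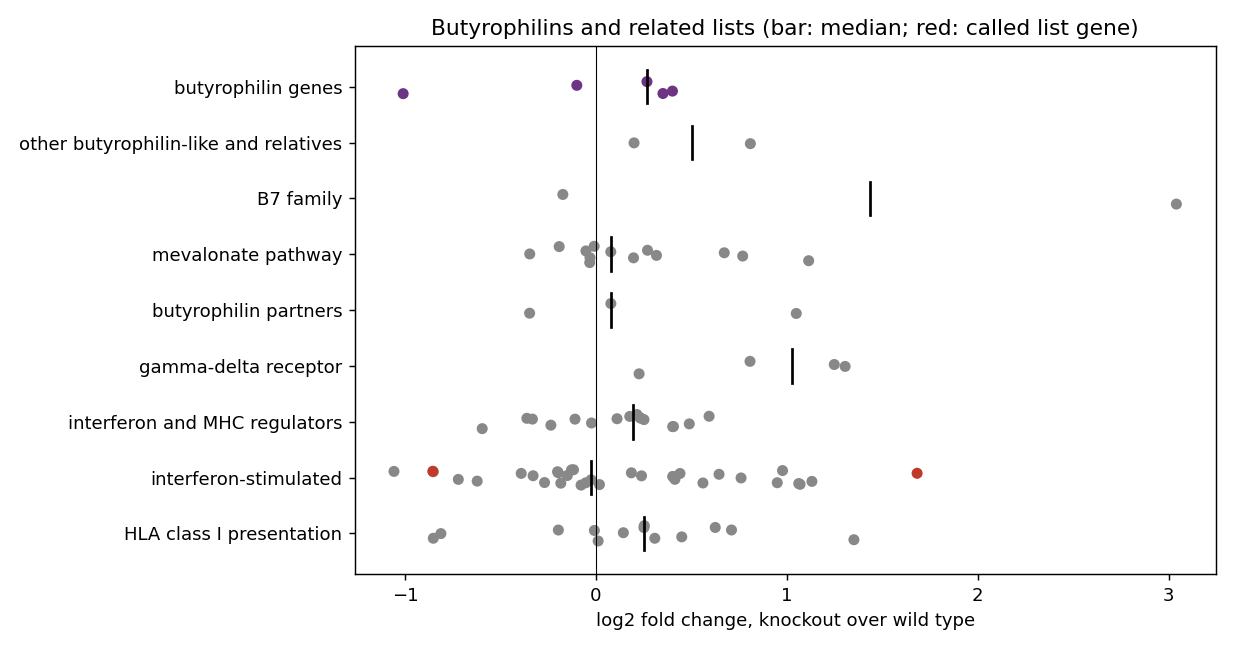
Each point is a tested gene placed by its log2 fold change of knockout over wild type (horizontal axis), with the butyrophilin genes in purple in the top row, genes of related lists below, medians as black bars and called list genes in red. The 2 red points are SP110 at -0.85 and GBP1 at 1.68, and BTNL9 is the purple point at -1.01.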

How the data were processed

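Raw read counts per gene were deposited by the authors for 4 knockout and 4 wild-type clones. The submitters' processing notes name hg38 with TopHat2, Subread, SAMtools and FastQC; roles, versions, annotation, read length and strand setting are not given in these sources. Total RNA was column-purified and made into Illumina libraries, per the labels' protocols. Counts were used as deposited. Genes were filtered with filterByExpr (14243 kept), scaled by TMM and compared with the two-sided quasi-likelihood test of edgeR 4.0.16 under R 4.3.3; p-values were adjusted by Benjamini-Hochberg over all 14243 genes, and 0.05 was the threshold. The C and S clones were contrasted in a fit with 3 groups. Log2 CPM used a prior count of 2. Intervals of differences used the fit's degrees of freedom.

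Positions, exon lengths and transcripts came from GENCODE 29, to which 57038 symbols were matched; promoters came from RefSeq (GRCh38.p14). Members and lists were chosen with earlier results of these data known, and the letters searched in promoters after the sequences were seen. Named genes were the members, up to 3 genes by smallest p per list (fewer are described for some lists), 5 by likeness to BTNL9 and 5 to the chromosome 6 sum, and the nearest tested neighbours. One of the genes so named is left out of the text. BTNL3, BTNL8, HHLA2, BTN1A1, BTNL2 and TRDC were named after their counts were seen. The gene test was also run on simulated counts, with spread estimated within C, S and wild-type clones separately. That setting leaves out differences between C and S clones, so no conclusion on the knockout contrast is drawn from it. Alternatives were DESeq2 1.42.0, voom in limma 3.58.1, other scalings and filters, thinning, each clone left out, and C or S clones alone. Clones of a group differed by more than sampling noise in each pair, so none was taken for a resequenced copy of the same library. That check cannot tell separate clones from repeat libraries of the same clone. Nothing in the labels names cultures or sequencing runs, so p-values reflect only how much these clones vary, part of which may be technical.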

Additional observations from a re-analysis of the deposited data

How the results depend on the processing

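The count of genes called between knockout and wild-type clones was 45. It was 581 with no low-count filter, 521 with DESeq2, 94 with limma-voom, 3 with counts thinned to the shallowest library, 6 with the C clones alone and 2211 with the S clones alone, and it ranged from 3 to 456 with a clone left out. It was 3 without WT10, WT13 or WT30, 5 without WT28, 7 without S04, 20 without S36, 114 without C15 and 456 without C12; 3 other settings gave 44 to 52. Between C and S clones the count was 51. It was 762 with no filter, 651 with DESeq2, 89 with limma-voom, 14 with DESeq2 size factors, 14 with the stricter filter, 25 after thinning and 13 without mitochondrial and histone genes, and it ranged from 0 to 749 with a clone left out, being 0 without any 1 of the wild-type clones. The cause was not tested. The log2 fold change of a member moved by more than the spread between clones in 2 of 85 comparisons, both with clones of a single letter: -1.23 for BTNL9 with the S clones and -0.038 for BTN3A1 with the C clones. The adjusted p of BTNL9 was under 0.05 in 9 of 17 settings; besides the clones left out it missed it after thinning (0.0947) and with the C clones alone (0.176). No paired analysis was possible because the labels give no replicate numbers shared by the groups. Depth limits BTN2A1 in all clones and every low value in C15.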
